A study of Homo sapiens with 34 samples.

Results

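VCaP cells growing on a coating of amorphous calcium phosphate (ACP) were compared between medium made with charcoal-dextran-stripped serum and control medium. The comparison rests on 4 of the study's 34 libraries, chosen by the line, the surface and the medium in their column names: 2 in stripped medium and 2 in control medium, all labelled day 4. The whole study sequenced poly(A) RNA from 4 human prostate lines on plastic and on ACP, which the study uses as a model of the bone setting. VCaP is an established line from a bone metastasis of prostate cancer, and the labels name no gene edit and no other cell type in these cultures. Its control medium was a mixture of DMEM and F12 with fetal bovine serum. The 5 other VCaP libraries are 2 on ACP in stripped medium with added androgen (100 mM on the label, called DHT in the titles and testosterone in the treatment labels), 1 on plastic in stripped medium and 2 on plastic in control medium, the last pair labelled as continuous culture and not as day 4. Nothing in the labels says that replicates came from separate cultures, so the p-values measure the spread between these libraries, which may be technical.

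Charcoal treatment strips serum of steroid hormones and of other small lipid-soluble factors, so stripped medium is the usual way to withdraw androgen from a prostate cancer line. VCaP carries the TMPRSS2-ERG fusion, which places ERG under an androgen-driven promoter. Cells that leave the cell cycle keep the retinoblastoma family bound to E2F factors, which holds down the genes of DNA replication, while a later wave of mitotic genes depends on B-MYB (gene MYBL2) and FOXM1, which act with the MuvB complex at a promoter element called CHR.

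The 2 control libraries held 21424529 and 23012911 counts and the 2 stripped libraries 21016580 and 23696219 counts. Replicates correlated across genes with r = 0.981 in control and 0.967 in stripped medium (log2 CPM, where CPM are counts scaled to the library's size), against 0.957 to 0.969 between the media. The 7 luminal prostate markers (KRT8, KRT18, KRT19, EPCAM, CDH1, HOXB13 and FOXA1) were all present and summed to 2686 to 2840 CPM in control and 3233 to 3685 CPM in stripped medium. A longer luminal list of 15 genes, with androgen-driven genes such as TMPRSS2 and KLK2 among them, summed to 10166 to 10876 CPM in control and 10724 to 11163 CPM in stripped medium, with 9 changes positive and 6 negative. The 5 markers of the VCaP line, ERG among them, summed to 870 to 944 CPM and 558 to 784 CPM. The 6 basal markers summed to 14.3 to 25.3 CPM and 8.72 to 18.3 CPM. The 6 fibroblast markers summed to 36.3 to 44.7 CPM in control and to 41.9 and 164 CPM in stripped medium, nearly all of it LUM. The 6 lymphoid and myeloid markers summed to 5.80 to 11.8 CPM and 12.1 to 19.9 CPM, with CD3E at 0 reads in all 4. The 5 liver markers came almost wholly from ALB (131 to 244 CPM and 270 to 325 CPM in sum), with FGA and FGG at 0 reads in all 4. Of the 32 markers tested, edgeR called 0 between the media. At an unadjusted p below 0.05 there were 2 higher (6.25%, against 8.61% of all genes) and 3 lower (9.38%, against 7.95%). In DESeq2 KRT8 passed as higher (3.13%, against 1.81% of all genes) and KRT14 as lower (3.13%, against 3.7%). The part of other cells in the results was not tested.

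In VCaP on ACP, the genes that fell in stripped medium included many genes of DNA synthesis and cell division. Of 15614 genes tested, 128 passed an adjusted p of 0.05 in edgeR's quasi-likelihood test (0.82%): 107 were lower in stripped medium (0.685%) and 21 were higher (0.134%). Falls outnumbered rises among these calls although the median log2 change of all genes was 0.08. At an unadjusted p below 0.05 rises were the more numerous, with 1344 higher (8.61%) and 1241 lower (7.95%). Apart from C1orf87, which had 10 and 9 reads in control and 0 in both stripped libraries, the falls ran from -4.07 to -1.02 on the log2 scale with a median of -1.76 over all 107, and the rises from 0.99 to 4.07 with a median of 1.53. All 128 had libraries that did not overlap between the media, which held for 27.9% of all genes in the higher and 21.7% in the lower direction. DESeq2 called 577 genes lower (3.7%) and 283 higher (1.81%), among them all 128. The number of edgeR calls varied when 1 library was left out: without control replicate 1, control replicate 2 or stripped replicate 1 edgeR called 0 genes (1525, 1605 and 2087 at an unadjusted p below 0.05), and without stripped replicate 2 it called 309, of which 93 were among the 128. DESeq2 called 285, 315, 444 and 917 genes in the same 4 settings and kept 127, 123, 126 and 126 of the 128. In every one of these 8 settings all 128 genes kept their direction. They were picked on these same libraries, which did not overlap between the media in any of the 128. Leaving out 1 library could therefore hardly turn a direction, and the kept direction is no separate support.

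**Figure D1:**
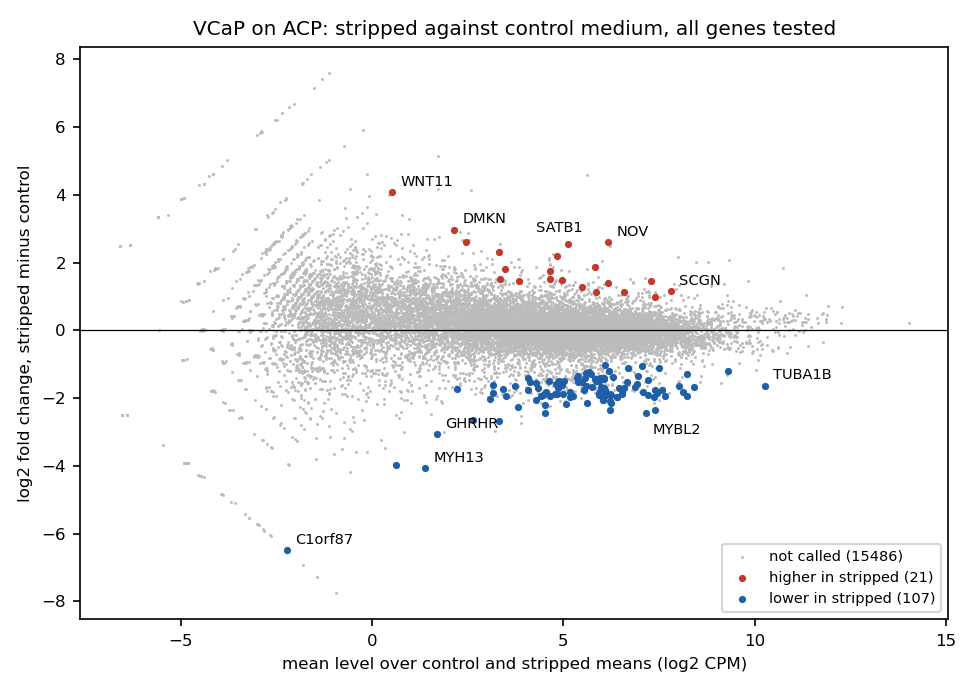
Each point is 1 of the genes tested in VCaP on ACP, with the mean level of both media on the x axis (log2 CPM) and the log2 fold change of stripped minus control medium on the y axis; genes with no read in the 4 libraries are not drawn. The 107 called falls (blue) have a median of -1.76 and 102 of them have a control mean of 10 CPM or more, while the 21 called rises (red) are spread between 0.99 and 4.07.

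The plot of log2 change against level shows that 102 of the 107 falls had a control mean of 10 CPM or more, against 60.0% of all genes tested. Control is the higher group of every fall, and a call is easier to reach with more reads. This share thus follows in part from how the calls are made and is no result about the falls. Of the 107, 27 (25.2%) stood on lists of DNA replication or mitosis genes, which hold 0.448% of all genes tested. With 3 lists drawn up after the calls were seen (recombination, E2F and MYB factors, chromatin assembly) the number was 51 (47.7%), and these 5 lists hold 1.01% of all genes tested. None of the 21 rises was on the replication or mitosis list.

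Promoters of the genes that fell are shown here because the replication and mitosis lists differ in the letters they hold near the transcription start. The stretches run from 200 bases before to 20 bases after the start in RefSeq (GRCh38.p14, while the counts were made on hg19), each read 5′ to 3′ on the gene's strand. Capitals mark E2F letters (TTTGGCGC, TTTCGCGC, TTTCCCGC or TTTGCCGC on either strand) in E2F1, MCM3 and CDC6, and the CHR letters TTTGAA and the letters CCAAT on either strand in CDC20 and PLK1. E2F1 lies on chromosome 20 (chr20:33686366-33686585, minus strand), MCM3 on chromosome 6 (chr6:52284723-52284942, minus strand), CDC6 on chromosome 17 (chr17:40287679-40287898, plus strand), CDC20 on chromosome 1 (chr1:43358781-43359000, plus strand) and PLK1 on chromosome 16 (chr16:23678689-23678908, plus strand).
E2F1: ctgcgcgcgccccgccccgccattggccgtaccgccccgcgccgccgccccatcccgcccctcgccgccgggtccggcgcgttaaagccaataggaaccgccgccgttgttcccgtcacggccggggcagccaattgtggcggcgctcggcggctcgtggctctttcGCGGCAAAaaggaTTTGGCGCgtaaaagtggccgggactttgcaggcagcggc
MCM3: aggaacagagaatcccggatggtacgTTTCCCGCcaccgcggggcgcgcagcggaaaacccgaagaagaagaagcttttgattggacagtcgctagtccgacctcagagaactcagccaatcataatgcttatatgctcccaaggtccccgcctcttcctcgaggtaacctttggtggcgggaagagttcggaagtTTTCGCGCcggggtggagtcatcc
CDC6: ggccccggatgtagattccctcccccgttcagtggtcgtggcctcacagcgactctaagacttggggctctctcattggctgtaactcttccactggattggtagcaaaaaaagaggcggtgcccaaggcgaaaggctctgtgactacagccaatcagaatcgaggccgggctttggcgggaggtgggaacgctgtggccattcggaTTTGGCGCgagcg
CDC20: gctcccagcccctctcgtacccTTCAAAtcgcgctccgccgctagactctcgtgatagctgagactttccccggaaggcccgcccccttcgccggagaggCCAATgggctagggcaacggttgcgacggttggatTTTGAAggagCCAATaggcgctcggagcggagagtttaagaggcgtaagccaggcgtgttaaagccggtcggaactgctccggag
PLK1: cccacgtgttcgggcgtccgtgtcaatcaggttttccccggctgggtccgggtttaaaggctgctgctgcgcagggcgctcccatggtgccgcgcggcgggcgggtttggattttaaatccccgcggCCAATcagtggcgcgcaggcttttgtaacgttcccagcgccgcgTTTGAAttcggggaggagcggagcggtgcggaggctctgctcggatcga

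The matches in E2F1 begin 33 and 20 bases before the start, those in MCM3 174 and 4 bases before it, and the one in CDC6 at base 8 of the transcript. In CDC20 the CHR letters begin 178 and 65 bases before the start and in PLK1 29 bases before it. Over the window of 250 bases before to 50 after the start, 21 of 36 replication genes with a RefSeq promoter held an E2F match (58.3%), against 3 of 27 mitosis genes (11.1%) and 3.33% of 27305 promoters in the table, 1 per symbol. The CHR letters stood in 20 of 27 mitosis genes (74.1%), 1 of 36 replication genes (2.78%) and 15.4% of all promoters. CCAAT was present in 22 of 27 mitosis genes (81.5%), 21 of 36 replication genes (58.3%) and 35.7% of all. The 27305 promoters include genes not tested here, while both lists hold tested genes only, so the shares of all promoters are not a matched background. A letter match is a description of the sequence and not a measured binding site.

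Transcription factors that drive the cycle were among the largest falls. MYBL2, which encodes B-MYB, stood at 246 and 235 CPM in the 2 control libraries and at 34.9 and 53.6 CPM in the 2 stripped libraries. Its log2 change was -2.44 ± 0.35 (SE, n = 2 and 2, edgeR adjusted p = 0.0299), a 5.43-fold fall, and the groups were far apart. E2F1, an activating E2F, stood at 136 and 111 CPM in control and at 24.3 and 24.3 CPM in stripped medium (-2.34 ± 0.35, edgeR adjusted p = 0.0328). E2F2, its close relative, had 40.6 and 36.4 CPM against 4.92 and 9.30 CPM (-2.43 ± 0.44, edgeR adjusted p = 0.0411). The atypical E2Fs, which repress E2F targets late in S phase, fell too, with log2 changes of -2.28 for E2F8 and -1.94 for E2F7. FOXM1, the driver of G2 and M phase genes, stood at 270.2 and 251 CPM in control and 50.3 and 82.6 CPM in stripped medium (-1.97 ± 0.32, edgeR adjusted p = 0.0345). CDK2, the kinase of S phase entry, fell by 1.45 on the log2 scale.

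Of the 24 tested E2F, MYB and FOXM factors and their partners, 7 passed edgeR's test, all lower, with a list median of -0.67. That is 29.2%, against 0.685% of all genes. DESeq2 called 10 lower (41.7%, against 3.7% of all genes). The members that passed in neither tool included E2F3 at -0.25, E2F4 at -0.44, RB1 at -0.18 and MYB at 0.04. This list was chosen after the calls were seen, and its count is a description.

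All 37 tested genes of the DNA replication list had a negative log2 change, with a median of -1.71, and in all 37 the libraries of the media did not overlap, against 21.7% of all genes in that direction. edgeR called 17 of them lower (45.9%, against 0.685% of all genes) and 0 higher, E2F1 and E2F2 among them. DESeq2 called 35 lower (94.6%, against 3.7% of all genes), and 23 to 35 when 1 library was left out. TK1, the thymidine salvage kinase, stood at 323 and 237 CPM in control and at 44.3 and 64.5 CPM in stripped medium (-2.36 ± 0.37, edgeR adjusted p = 0.0328). Its partner in thymidylate supply, thymidylate synthase (TYMS), had 132 and 111 CPM against 26.8 and 30.4 CPM, a fall of the same order. The licensing factors CDC6 and CDT1, which load the replicative helicase on origins, fell by 2.05 and 1.95 on the log2 scale. Of the helicase itself, MCM2, MCM3, MCM5 and MCM7 passed the test, with log2 changes of -1.76, -1.71, -1.90 and -1.28, MCM6 stood at -1.56 and just missed the threshold (edgeR adjusted p = 0.0514), and MCM4, which is not on the list, fell by 1.93. MCM5 stood at 125 and 113 CPM in control and 32.5 and 31.6 CPM in stripped medium, and MCM3 at 154 and 139.6 CPM in control and 45.2 and 44.5 CPM in stripped medium, so both stripped libraries lay close together in these genes. CDC45, which joins the helicase when it fires, fell by 2.06. POLA2, a subunit of the primase complex, fell by 1.70, FEN1, the flap nuclease, by 1.89, and LIG1, the ligase that joins Okazaki fragments, by 1.43. RRM1, a subunit of ribonucleotide reductase, fell by 1.46, UHRF1, which carries DNA methylation through replication, by 1.93, and CHAF1B, a histone chaperone at the fork, by 1.40. PCNA, the sliding clamp, was at 439 and 309.5 CPM in control and 103 and 159.7 CPM in stripped medium, with a log2 change of -1.51 ± 0.34 that missed the threshold (edgeR adjusted p = 0.0684). The members with the smallest change were CCNE1 at -0.75 and POLE at -0.70, neither past the threshold in edgeR or DESeq2.

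All 33 genes of the mitosis list were likewise lower in both stripped libraries than in both control libraries, against 21.7% of all genes, with a median of -1.68. edgeR called 10 of them lower (30.3%, against 0.685% of all genes), FOXM1 among them. DESeq2 called 31 lower (93.9%, against 3.7% of all genes). CDC20, the activator of the anaphase-promoting complex, stood at 141 and 126 CPM in control and at 24.1 and 43.9 CPM in stripped medium (-1.97 ± 0.36, edgeR adjusted p = 0.0411). PLK1, the Polo kinase, had 144 and 125 CPM against 23.2 and 45.9 CPM (-1.95 ± 0.37, edgeR adjusted p = 0.0461). The spindle genes PRC1, TPX2, KIF23 and KIF4A fell by 1.85, 1.77, 1.77 and 1.70 on the log2 scale, and the centromeric histone CENPA by 1.88. UBE2C, the ubiquitin-conjugating enzyme of the anaphase-promoting complex, fell by 1.87 and CDCA8, of the chromosomal passenger complex, by 1.76. Outside the list, ESPL1, the separase that cuts cohesin, went from 112 and 135 CPM to 19.5 and 36.5 CPM (-2.14 ± 0.32, edgeR adjusted p = 0.0328). MKI67, the proliferation antigen, was at 228 and 349 CPM in control and 39.3 and 100.2 CPM in stripped medium, and CDK1 at 265 and 181 CPM in control and 39.0 and 118 CPM in stripped medium. Both missed the threshold in edgeR (adjusted p = 0.0711 and 0.142) and passed in DESeq2 (adjusted p = 4.8e-05 and 0.00586), with stripped libraries that differed from each other by more than those of the MCM genes.

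That difference between the stripped libraries ran through the falls. Stripped replicate 1 was below stripped replicate 2 in 91 of the 107 genes that fell and in all 33 mitosis genes, against 49.7% of all genes tested. The 33 mitosis genes summed to 5314 and 5329 CPM in control and to 1023 and 2322 CPM in stripped medium. The 37 replication genes summed to 4347 and 3832 CPM in control and to 1166 and 1454 CPM in stripped medium. Both stripped libraries were thus low, with replicate 1 the lower of the pair. In RNA of whole cultures, fewer dividing cells and less RNA per dividing cell cannot be told apart.

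**Figure D2:**
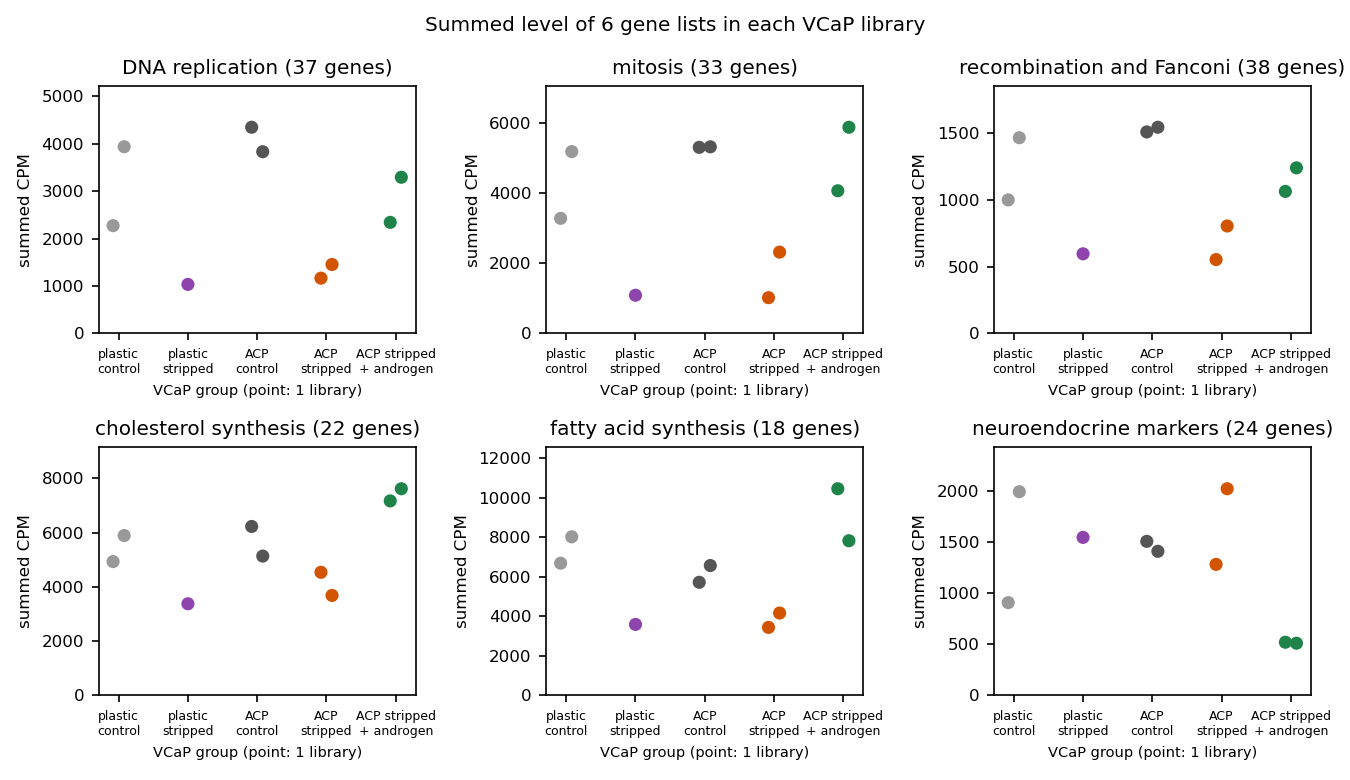
Each point is 1 VCaP library, the x axis gives surface and medium and the y axis the summed level of a gene list in CPM. The replication and mitosis sums are 3832 to 4347 and 5314 to 5329 CPM in ACP control medium and 1166 to 1454 and 1023 to 2322 CPM in ACP stripped medium, the recombination, cholesterol and fatty acid sums are also lower in both ACP stripped libraries, and the neuroendocrine sum overlaps between these groups.

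Repair by homologous recombination is active when a sister chromatid is present. Of 38 genes on a recombination and Fanconi anaemia list chosen after the calls were seen, 9 passed edgeR's test, all lower (median -1.36). That is 23.7%, against 0.685% of all genes. DESeq2 called 24 lower (63.2%, against 3.7% of all genes). RAD54L, a motor of strand exchange, was at 30.7 and 32.4 CPM in control and 5.56 and 9.63 CPM in stripped medium (-2.05 ± 0.35, edgeR adjusted p = 0.036). The Fanconi genes FANCA, FANCD2 and FANCG fell by 2.03, 1.68 and 1.42, and XRCC3, a recombination factor, by 1.82. MDC1, which gathers repair factors at breaks, fell by 1.88, EME1, a junction nuclease partner, by 1.60, RMI2, of the BLM complex, by 1.70, and PSMC3IP, a recombination cofactor, by 1.85.

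Chromatin genes gave the third such group. The list of histone chaperones, condensins, lamins and related genes was also chosen after the calls were seen. On it 11 of 30 passed edgeR's test, all lower (36.7%, against 0.685% of all genes), with a median of -1.31. DESeq2 called 25 lower (83.3%, against 3.7% of all genes). ASF1B, the histone chaperone of dividing cells, was at 86.8 and 74.0 CPM in control and 15.8 and 20.5 CPM in stripped medium (-2.15 ± 0.28, edgeR adjusted p = 0.0299), while its paralog ASF1A stood at -0.03 and did not pass. LMNB1, lamin B1, was at 312 and 325 CPM in control and 66.9 and 98.1 CPM in stripped medium (-1.95 ± 0.27, edgeR adjusted p = 0.0299). LMNB2 fell by 1.10 and LMNA, the lamin of resting cells as well, stood at 0.07. The condensin subunits NCAPH and NCAPD2 fell by 1.90 and 1.60, the variant histone H2AFX by 1.83, the maintenance methyltransferase DNMT1 by 1.54, the helicase HELLS by 1.88, HMGB2 by 1.66, PHF19 by 1.35 and NASP by 1.19. Of the largest falls on none of these lists, CENPM, a kinetochore protein, went from 60.0 and 49.1 to 11.4 and 12.7 CPM and ZNF367 from 39.4 and 35.4 to 7.48 and 8.81 CPM.

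A few large falls were not cell cycle genes in this sense. GHRHR, the receptor of growth hormone-releasing hormone, stood at 7.88 and 3.63 CPM in control and at 0.541 and 0.827 CPM in stripped medium (-3.05 ± 0.48, edgeR adjusted p = 0.0328), the largest fall at a mean of 5 CPM or more. MYH13, a muscle myosin heavy chain, went from 6.89 and 2.94 CPM to 0.148 and 0.413 CPM and was at 12.1 and 18.7 CPM with androgen. C1orf87 was at 0 reads in both stripped libraries, which allows up to 0.143 and 0.127 CPM at 3 counts per library for counting error only, and at 4.92 and 5.38 CPM with androgen. These low genes rest on few reads.

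CDK6, RBMXL2 and FLJ16779 fell on ACP but were not lower in stripped medium on plastic. CDK6, a kinase of G1 phase, had 13.8 and 20.3 CPM in control and 3.89 and 1.53 CPM in stripped medium on ACP (-2.66 ± 0.50, edgeR adjusted p = 0.0457), but 2.30 and 1.08 CPM on plastic in control and 9.44 CPM on plastic in stripped medium. RBMXL2, an intronless relative of RBMX whose reads may be shared with it, had 8.49 and 12.9 CPM in control and 2.51 and 0.910 CPM in stripped medium on ACP, and 0.511 and 0.414 against 7.63 CPM on plastic. The uncharacterised gene FLJ16779 had 2.69 and 3.12 CPM in control and 0.246 and 0.124 CPM in stripped medium on ACP. They were the only 3 of the 107 falls of this kind. RNAs without a poly(A) tail also had their lowest summed level in plastic control, though TERC, the telomerase RNA, did not follow the sum, at 0.879 and 0.828 CPM there and 0.394 and 0.744 CPM in ACP stripped medium. The 10 such RNAs summed to 47.7 and 143 CPM in ACP control, 24.7 and 29.5 CPM in ACP stripped, 3.83 and 3.77 CPM in plastic control and 80.2 CPM in the plastic stripped library. Of the 6 tested, 0 passed edgeR (4 at an unadjusted p below 0.05, all lower, against 7.95% of all genes in that direction). In DESeq2 3 passed, all lower, against 3.7% of all genes. RPPH1, the RNA of ribonuclease P, was at 32.4 and 89.8 CPM in ACP control and 17.4 and 18.2 CPM in ACP stripped medium (edgeR adjusted p = 0.0663). RMRP, the RNA of a related ribonuclease, had 11.0 and 43.5 CPM in control and 4.87 and 8.35 CPM in stripped medium, and SNORA73B had 1.18 and 3.07 CPM in control and 0.197 and 0.248 CPM in stripped medium on ACP. The part of tail-less RNA in the 3 falls was not tested.

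**Figure D3:**
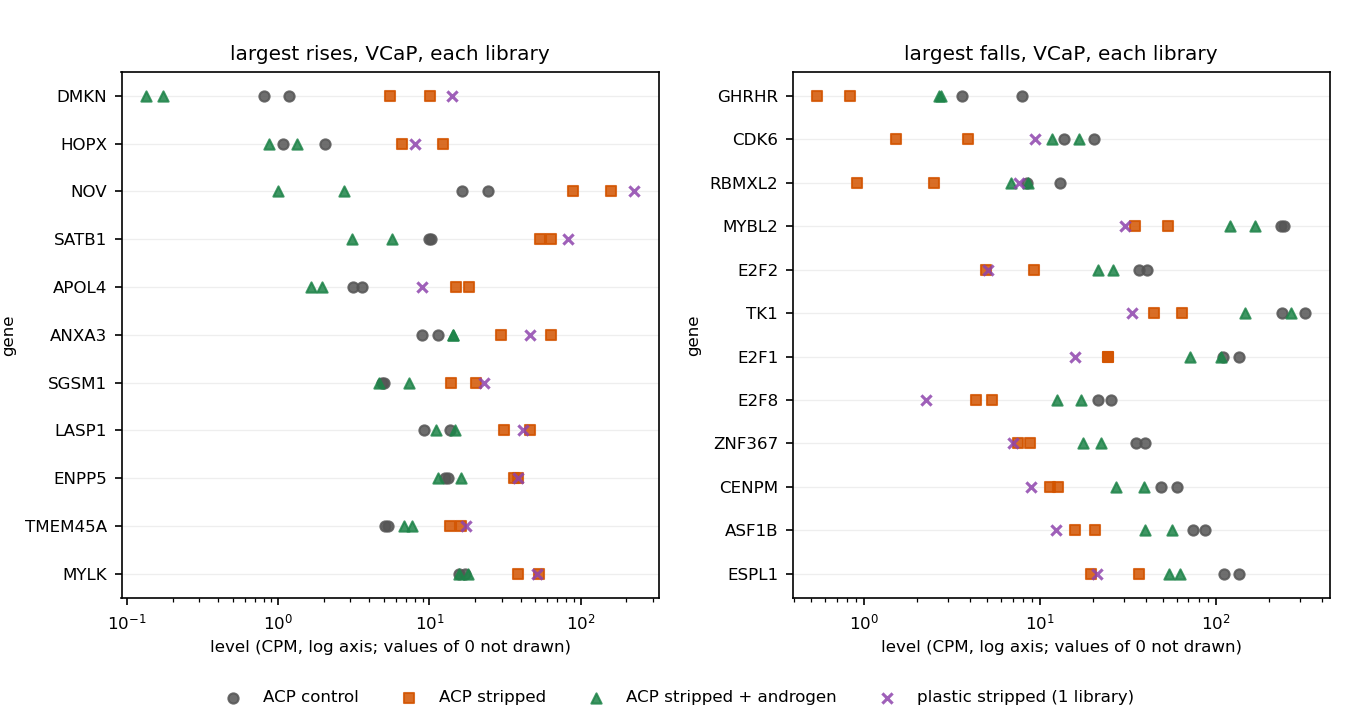
Levels in CPM on a log axis (x) of 11 of the 12 largest rises (left) and the 12 largest falls (right), by gene (y). Each point is 1 library, with groups by colour and shape. The genes were picked among calls whose higher group averages 5 CPM or more and whose libraries do not overlap between the ACP media. By that choice ACP stripped points stand right of ACP control points in every rise and left of them in every fall. The plastic stripped library has 0 CPM of GHRHR, which is not drawn.

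The 21 genes that rose came from several families. SATB1, a chromatin organiser, stood at 10.0 and 10.2 CPM in control and at 53.6 and 63.8 CPM in stripped medium (2.54 ± 0.32, edgeR adjusted p = 0.0299), a 5.80-fold rise with replicates close together. The rise was thus wider than the spread of either group.

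Secreted signals were part of the rises. NOV, which encodes the matricellular protein CCN3, had 24.3 and 16.4 CPM in control and 158 and 89.2 CPM in stripped medium (2.61 ± 0.39, edgeR adjusted p = 0.0328). WNT11, a ligand of non-canonical Wnt signalling, rose by the largest factor but at a low level, from 0.189 and 0.128 CPM (4 and 3 reads) to 2.26 and 3.18 CPM (46 and 77 reads), a log2 change of 4.07 ± 0.69 (edgeR adjusted p = 0.036). IHH, a Hedgehog ligand, went from 63.6 and 57.1 CPM to 145 and 119 CPM (1.13 ± 0.19, edgeR adjusted p = 0.0347). These were the only 3 edgeR calls among 21 tested Wnt, Hedgehog and CCN genes on a list chosen after the calls were seen (median 0.61). That is 14.3% higher, against 0.134% of all genes. GLI1, the usual readout of Hedgehog signalling, was near 0 throughout, at 0.660 and 0.171 CPM in control and 0 and 0.0413 CPM in stripped medium (edgeR adjusted p = 0.229).

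Epithelial and cytoskeletal genes were others. DMKN, the epidermal secreted protein dermokine, had 1.18 and 0.811 CPM in control and 10.1 and 5.50 CPM in stripped medium (2.97 ± 0.49, edgeR adjusted p = 0.0347). HOPX, an atypical homeodomain protein of differentiating epithelia, had 2.03 and 1.07 CPM in control and 12.4 and 6.62 CPM in stripped medium (2.61 ± 0.47, edgeR adjusted p = 0.0411). ANXA3, a phospholipid-binding annexin, had 11.5 and 8.96 CPM in control and 64.1 and 29.5 CPM in stripped medium, with stripped replicate 1 well above stripped replicate 2. MYLK, myosin light chain kinase, rose by 1.48 on the log2 scale, LASP1, an actin-binding protein, by 1.76, and PLEKHA6, of cell junctions, by 1.45. APOL4 (2.30), SGSM1 (1.80), ENPP5 (1.53) and TMEM45A (1.52) were also among the larger rises, and ARHGEF3 (1.28) and MPP1 (1.13) rose by less.

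Tubulin genes moved in opposite directions. TUBA1A, the alpha-tubulin abundant in neurons, stood at 80.4 and 88.4 CPM in control and 170.5 and 291 CPM in stripped medium (1.45 ± 0.26, edgeR adjusted p = 0.0411). TUBA1B, the alpha-tubulin of most dividing cells, went from 1974 and 1759.8 CPM to 493 and 714 CPM (-1.63 ± 0.31, edgeR adjusted p = 0.0487), and TUBB4B fell by 1.19. Near-identical tubulin genes share reads, so how the counting divided them makes the single values uncertain.

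Neuroendocrine traits are known to appear in prostate cancer cells deprived of androgen. SCGN, a calcium-binding protein of neuroendocrine cells, rose from 159 and 119.6 CPM to 309 and 311 CPM (1.15 ± 0.21, edgeR adjusted p = 0.0411), and RAB27B, a GTPase of secretory vesicle release, from 119 and 106 CPM to 220.1 and 226 CPM. Neither is on the neuroendocrine list. Of the 20 tested genes on that list edgeR called 0, and the median was 0.95. At an unadjusted p below 0.05 there were 8, all higher (40%, against 8.61% of all genes in that direction). DESeq2 called 3 higher (15%, against 1.81% of all genes). NTS, the neurotensin precursor, had 2.03 and 1.02 CPM in control and 11.9 and 7.44 CPM in stripped medium (edgeR adjusted p = 0.0645, DESeq2 adjusted p = 0.0003). CHGB, a granin of secretory granules, had 58.9 and 60.2 CPM in control and 150.3 and 106 CPM in stripped medium (edgeR adjusted p = 0.104, DESeq2 adjusted p = 0.0138), and NCAM1, an adhesion molecule, 2.17 and 2.48 CPM in control and 6.89 and 7.11 CPM in stripped medium (edgeR adjusted p = 0.169, DESeq2 adjusted p = 0.0491). The summed level of the list was 1505 and 1408 CPM in control and 1279.7 and 2021 CPM in stripped medium, and PEG10, its only tested member with a negative change, had 1071 and 897 CPM in control and 590.4 and 702 CPM in stripped medium. CHGA, chromogranin A, had 69.9 and 115 CPM in control and 126 and 703 CPM in stripped medium, high in stripped replicate 2 alone.

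Most androgen-induced genes did not pass in either tool. KLK3, which encodes prostate-specific antigen, stood at 85.2 and 101 CPM in control and at 36.4 and 121 CPM in stripped medium. The stripped libraries lay on either side of both controls, and the log2 change of -0.24 ± 0.63 did not pass (edgeR adjusted p = 0.883); without stripped replicate 1 it was 0.35 and without stripped replicate 2 -1.35. KLK2, the related kallikrein, had 3818 and 4111 CPM in control and 3013 and 3252 CPM in stripped medium (edgeR adjusted p = 0.515). TMPRSS2, a serine protease under androgen control, had 238 and 249 CPM in control and 90.6 and 97.5 CPM in stripped medium, with no overlap. Its log2 change of -1.37 ± 0.35 missed the threshold in edgeR (adjusted p = 0.0899) and passed in DESeq2 (adjusted p = 0.00107). ERG, driven in this line by the fusion, had 219 and 265 CPM in control and 127 and 158 CPM in stripped medium (-0.76 ± 0.32, edgeR adjusted p = 0.27). FKBP5, a chaperone induced by androgens and glucocorticoids, had 148 and 214 CPM in control and 63.1 and 122 CPM in stripped medium (-0.97 ± 0.33, edgeR adjusted p = 0.178, DESeq2 adjusted p = 0.0352).

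Of 44 tested androgen-induced genes, edgeR called 2 lower (4.55%, against 0.685% of all genes) and 0 higher, with a list median of -0.27. DESeq2 called 8 lower (18.2%, against 3.7% of all genes) and 0 higher. Both shares were above those of all genes, and no test of the list was made. The 2 edgeR calls were CENPN, a centromere protein that also belongs to the cell cycle genes and fell by 1.66, and HOMER2, a scaffold protein, which went from 170.2 and 189 CPM to 79.9 and 93.0 CPM (-1.06 ± 0.18, edgeR adjusted p = 0.0396). The list's largest positive change was that of HPGD, the enzyme that inactivates prostaglandins, at 267 and 203 CPM in control and 561 and 415 CPM in stripped medium, without passing (edgeR adjusted p = 0.2). The 20 androgen-repressed genes held 0 edgeR calls (3 lower at an unadjusted p below 0.05, against 7.95% of all genes in that direction) and 0 DESeq2 calls, with a median of -0.21. The plot of list members shows that the androgen lists spread over 0 while the replication and mitosis lists do not reach it.

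**Figure D4:**
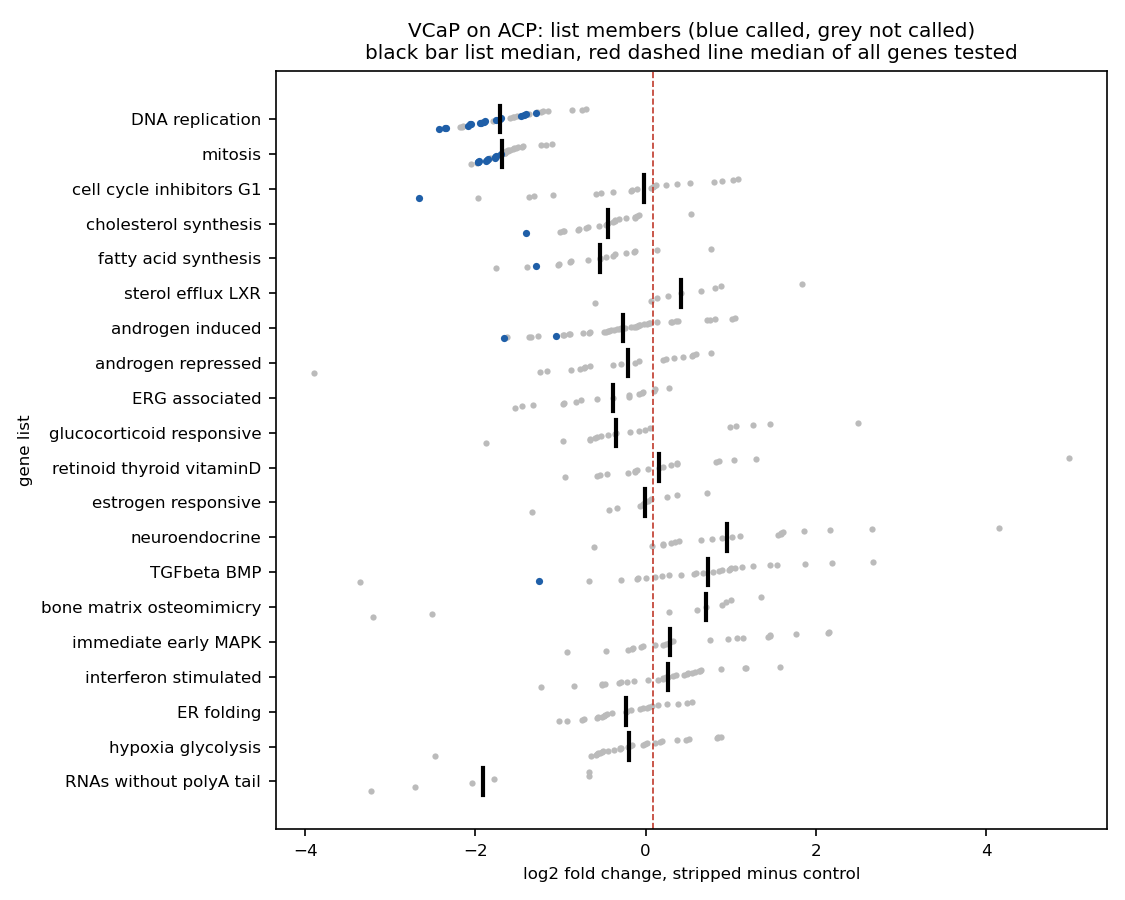
Each point is a tested member of a gene list (y axis) at its log2 fold change of stripped minus control medium in VCaP on ACP (x axis), blue where edgeR called it, with a black bar at the list median. The replication and mitosis lists lie wholly below 0 with medians of -1.71 and -1.68, while the median of all genes tested (red dashed line) is 0.08.

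Lipid synthesis, which androgen raises in prostate cells, held few edgeR calls, though the shares called lower were above those of all genes. Of 22 cholesterol synthesis genes, 21 had a negative log2 change (median -0.45) and edgeR called 1 lower, EBP, the sterol isomerase, from 102 and 77.2 CPM to 37.1 and 30.5 CPM (-1.41 ± 0.25, edgeR adjusted p = 0.0396). That is 4.55% of the list, against 0.685% of all genes. DESeq2 called 5 lower (22.7%, against 3.7% of all genes). HMGCS1, the synthase at the start of the pathway, had 753 and 514 CPM in control and 393 and 240.2 CPM in stripped medium and INSIG1, a sterol sensor, 418 and 259 CPM in control and 223 and 166 CPM in stripped medium. Both missed the threshold in edgeR (adjusted p = 0.163 and 0.162) and passed in DESeq2 (adjusted p = 0.0229 and 0.0344). Among 18 fatty acid synthesis genes, 16 had a negative change (median -0.54), and edgeR called FADS2 alone, a desaturase of polyunsaturated fatty acids, from 82.8 and 67.3 CPM to 26.4 and 34.8 CPM (-1.29 ± 0.23, edgeR adjusted p = 0.0396), with 6 lower in DESeq2. The fatty acid calls were 5.56% of that list in edgeR and 33.3% in DESeq2, against 0.685% and 3.7% of all genes. The 22 cholesterol genes summed to 6225 and 5131 CPM in control and 4532 and 3677 CPM in stripped medium.

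Immediate early genes, which respond within minutes to growth factors and stress, held 0 edgeR calls among 23 tested (5 at an unadjusted p below 0.05, all higher, against 8.61% of all genes in that direction), while DESeq2 called 4 higher (17.4%, against 1.81% of all genes). FOSL2, an AP-1 subunit, had 12.4 and 17.1 CPM in control and 39.7 and 40.2 CPM in stripped medium (edgeR adjusted p = 0.052). EGR1, a zinc finger factor, had 6.65 and 7.13 CPM in control and 15.8 and 31.2 CPM in stripped medium and DUSP1, a MAP kinase phosphatase, 13.2 and 18.1 CPM in control and 33.9 and 52.2 CPM in stripped medium, with no overlap between the media in these 3 genes. On the list of IGF and EGF ligands and receptors edgeR called 0 of 18. At an unadjusted p below 0.05 there were 4 higher (22.2%, against 8.61% of all genes) and 1 lower (5.56%, against 7.95%). DESeq2 called 1 higher (5.56%, against 1.81% of all genes). That was TGFA, a ligand of the EGF receptor, at 18.8 and 10.7 CPM in control and 46.4 and 36.4 CPM in stripped medium. IGFBP3, a binding protein of IGFs, was at 309 and 189 CPM in control and 1886 and 196 CPM in stripped medium, high in stripped replicate 1 alone.

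Signalling by TGF-beta and BMP is prominent in bone. Of 28 tested genes of these pathways, 22 had a positive change with a median of 0.73. At an unadjusted p below 0.05, 12 were higher (42.9%, against 8.61% of all genes), yet edgeR called 0 higher. DESeq2 called 3 higher (10.7%, against 1.81% of all genes), BAMBI, TGFBR2 and INHBB. The 1 edgeR call was a fall (3.57%, against 0.685% of all genes). It was that of the type I receptor BMPR1B, from 68.9 and 66.3 CPM to 25.6 and 31.0 CPM (-1.26 ± 0.19, edgeR adjusted p = 0.0328). BAMBI, a decoy receptor, had 1.13 and 1.62 CPM in control and 10.2 and 7.48 CPM in stripped medium (edgeR adjusted p = 0.0645), TGFBR2, the type II receptor, 2.31 and 2.52 CPM in control and 8.56 and 4.76 CPM in stripped medium, and INHBB, an activin subunit, 23.3 and 27.0 CPM in control and 55.7 and 43.6 CPM in stripped medium. On the list of G1 regulators and cell cycle inhibitors (22 tested, median -0.02), CDK6 was the only edgeR call (4.55%, against 0.685% of all genes lower). DESeq2 called 4 lower (18.2%, against 3.7% of all genes) and 2 higher (9.09%, against 1.81%). CCNG2, a cyclin of cells leaving the cycle, had 122 and 97.7 CPM in control and 277 and 190.4 CPM in stripped medium and passed in DESeq2 alone (edgeR adjusted p = 0.109, DESeq2 adjusted p = 0.0138). No gene passed edgeR on the lists of interferon-stimulated, heat shock, hypoxia and glycolysis, ER folding, amino acid stress, YAP target, estrogen, glucocorticoid, retinoid and bone matrix genes, on which DESeq2 called 0, 1, 1, 3, 0, 0, 0, 2, 0 and 0. All were lower but 1 glucocorticoid gene. The 3 of 25 ER folding genes were 12% (all genes 3.7%). At an unadjusted p below 0.05, 7 ER folding genes were lower (28%) and 1 higher. Of 28 hypoxia and glycolysis genes, 7 were lower (25%) and 0 higher, against 7.95% of all genes lower. Of 19 retinoid genes, 3 were higher (15.8%, against 8.61%) and 0 lower.

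On plastic, 1 stripped library without a replicate was available for the same genes. Of the 107 falls, 104 were lower in the plastic stripped library than in both plastic control libraries, against 37.2% of all genes, and all 21 rises were higher than in both, against 40.3% of all genes. MYBL2 was at 110.2 and 225 CPM in plastic control and 30.5 CPM in plastic stripped medium, and NOV was at 22.8 and 18.9 CPM in plastic control and 225 CPM in plastic stripped medium. These libraries took part in the estimate of spread but not in the contrast, and culture history differs between the plastic groups, so no test was made.

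The 2 libraries with androgen added to stripped medium on ACP show where these genes stood with the hormone present. MYBL2 was at 121 and 167 CPM, TK1 at 147 and 269 CPM and E2F1 at 71.7 and 107 CPM, above both stripped libraries. MYBL2 and E2F1 stayed below both control libraries. So did MCM2, at 128 and 155 CPM with androgen against 266 and 257 CPM in control, and LIG1, at 43.1 and 45.1 CPM against 80.8 and 85.1 CPM. CDC20 was at 121 and 238 CPM, on either side of both control libraries. NOV, at 1.00 and 2.71 CPM, and SATB1, at 5.66 and 3.07 CPM, lay below both control libraries as well as both stripped ones. KLK3 was at 3465 and 853 CPM and FKBP5 at 1059.8 and 779 CPM, outside the range of the other ACP libraries. A comparison of androgen with stripped medium would share the stripped libraries with the contrast described here, so these values are given side by side only.

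LNCaP, a line that the study takes as a model of early adenocarcinoma, was stripped on ACP in the same way, 2 libraries against 2, in a different base medium (RPMI). The difference between the stripping effects, VCaP minus LNCaP, was tested in a fit of all 34 libraries, with 103 of 17323 genes called (0.595%): 37 more positive in VCaP (0.214%) and 66 more negative (0.381%). In that fit the replication list had a median log2 change of -1.73 in VCaP and -0.36 in LNCaP, and the mitosis list -1.70 and -0.59. All 37 replication genes and all 33 mitosis genes had the more negative value in VCaP. By gene, however, only MCM3, POLA2 and RFC2 of both lists passed the test of the difference, at -1.53 ± 0.35, -1.58 ± 0.32 and -1.63 ± 0.30 (SE, edgeR adjusted p = 0.0409, 0.0157 and 0.00947), and none of the 12 largest falls did. LNCaP's own calls in that fit were 351 higher (2.03%) and 254 lower (1.47%), with 0 on both cell cycle lists. VCaP's own calls in the same fit were 431 higher and 626 lower, more than LNCaP's in each direction. The 128 VCaP calls given earlier came from the fit of VCaP libraries alone and cannot be set against LNCaP's counts.

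Of the 12 largest rises, TMEM45A differed between the lines. It had 5.07 and 5.40 CPM in VCaP control and 16.1 and 13.6 CPM in VCaP stripped medium, against 3.47 and 2.63 CPM in LNCaP control and 0.841 and 0.911 CPM in LNCaP stripped medium, so it was higher in stripped medium in one line and lower in the other (3.30 ± 0.47, edgeR adjusted p = 0.0008). HPGD had 266 and 206 CPM in control and 556 and 412 CPM in stripped medium in VCaP but 18.3 and 17.7 CPM in control and 1.23 and 1.68 CPM in stripped medium in LNCaP (4.67 ± 0.74, edgeR adjusted p = 0.00201). TM4SF1, a tetraspanin-like surface protein, was at 55.5 and 54.9 CPM in control and 63.3 and 76.8 CPM in stripped medium in VCaP and at 119 and 111 CPM in control and 11.3 and 17.6 CPM in stripped medium in LNCaP (3.34 ± 0.46, edgeR adjusted p = 0.00059).

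In other genes the effect was the more negative one in VCaP. SEMA3C, a secreted semaphorin, had 41.2 and 31.8 CPM in VCaP control and 21.7 and 14.7 CPM in VCaP stripped medium, and 43.9 and 65.2 CPM in control and 286 and 318 CPM in stripped medium in LNCaP (-3.47 ± 0.48, edgeR adjusted p = 0.00061). ABCG2, a drug efflux pump, had 3.76 and 1.47 CPM in control and 0.878 and 0.574 CPM in stripped medium in VCaP and 1.72 and 1.35 CPM in control and 14.0 and 21.2 CPM in stripped medium in LNCaP (-5.36 ± 0.72, edgeR adjusted p = 0.00052). For the fixed androgen genes KLK3, KLK2, TMPRSS2, FKBP5 and ERG the difference between the lines did not pass, with edgeR adjusted p from 0.611 to 0.899. ERG had few reads in LNCaP, at 0.358 and 0.475 CPM in control and 0.0647 and 0.280 CPM in stripped medium. Its difference (0.50 ± 0.99) therefore says little about the lines.

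**Figure D5:**
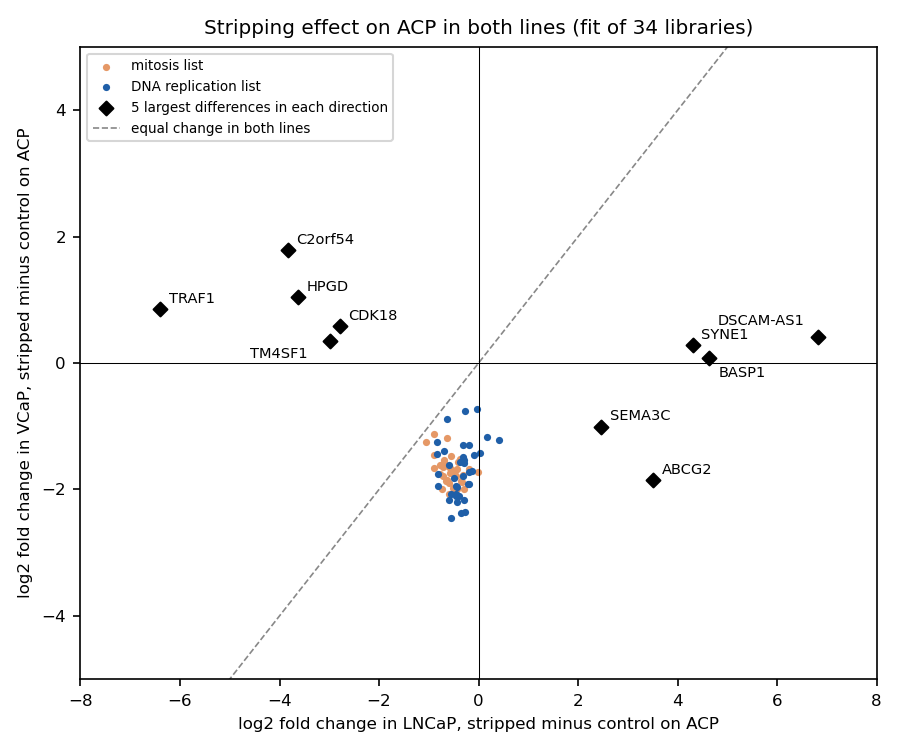
Log2 fold change of stripped minus control medium on ACP in LNCaP (x axis) and VCaP (y axis), for the replication and mitosis lists and the 5 largest called differences in each direction, from the fit of all 34 libraries. Cell cycle genes cluster below the dashed line of equal change, with list medians of -1.73 and -1.70 in VCaP and of -0.36 and -0.59 in LNCaP, while the black diamonds lie far to its sides.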

How the data were processed

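Per the labels, RNA came off RNeasy columns and libraries were made after poly(A) selection. The values are the authors' deposited counts of reads per gene symbol, whole numbers without normalization, in 1 table of 26336 genes by 34 libraries; 4335 genes had no read. The submitters' processing notes name STAR, HTSeq and hg19. The sources used here give no versions, annotation or strand setting.

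Genes were tested in R 4.3.3 by edgeR 4.0.16's quasi-likelihood test after filterByExpr (minimum count 10) and TMM normalization, with Benjamini-Hochberg adjustment and a threshold of 0.05, in the 9 VCaP libraries (5 groups, 4 residual degrees of freedom, biological coefficient of variation 24.9%), and for the difference between lines in all 34 (17 groups, 17 degrees of freedom, 19.9%). SE is the log2 fold change over the square root of F. CPM use TMM sizes of the fit named. Alternatives were DESeq2 1.42.0, RLE sizes, no filter, other sets of libraries, a replicate block and leaving out each library. The named genes were fixed androgen genes, the 12 largest rises and falls among calls at a mean of 5 CPM or more without overlap, called list members, and the 5 largest differences between lines in each direction. Genes named besides these, such as WNT11, MYH13, TUBA1A, CHGB and BAMBI, were chosen after their values were seen, as were 4 of the lists. The members and lists were chosen with earlier results of these data known. A list of mitochondrial genes had no member in the table.

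On simulated counts, 200 genes were changed by a known size: edgeR recovered 29.0% of log2 changes of 1 (15317 genes) and 90.0% of changes of 2 (15309 genes) for stripped against control medium, and 5.00% (17094 genes) and 81.5% (17112 genes) for the difference between lines. For stripped against control medium edgeR made 2 false calls beside 58 recovered genes at a change of 1, and 8 beside 180 at a change of 2. DESeq2 made 15 beside 77 and 23 beside 183, so its false share was the larger in the simulated counts. Their spread followed the level of a gene and not each gene's own spread, and only genes above a low count were changed. The shares in the real data may therefore differ. Genes and list counts that passed in DESeq2 alone are taken as less certain. For the difference between lines edgeR made 1 and 4 false calls. The other samples of the study were used only in the fit of all 34 libraries. A few genes that these rules name are not reported here.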

Additional observations from a re-analysis of the deposited data

Results flagged for a closer look

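For 11 of the named genes the effect of stripping on ACP differed between VCaP and LNCaP by edgeR's test of the difference itself (VCaP minus LNCaP, log2, fit of 34 libraries). The effect was more positive in VCaP for TRAF1 (7.25), C2orf54 (5.63), HPGD (4.67), CDK18 (3.36), TM4SF1 (3.34) and TMEM45A (3.30). It was more negative in VCaP for DSCAM-AS1 (-6.41), ABCG2 (-5.36), BASP1 (-4.54), SYNE1 (-4.02) and SEMA3C (-3.47).

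HPGD, TM4SF1, TMEM45A, ABCG2, SYNE1 and SEMA3C kept the call in all 13 alternatives, 8 of which left out 1 library. TRAF1 lost it in 7, and its difference ran from 3.18 to 11.2 when 1 library was left out: in LNCaP control medium it was at 0.358 and 11.8 CPM and in LNCaP stripped medium at 0 and 0.140 CPM. C2orf54 lost it in 6 (2.66 to 6.53), with LNCaP control libraries at 0.250 and 3.72 CPM, and CDK18 in 7 (2.30 to 3.97), with 1.29 and 4.09 CPM there. These 3 lost the call without LNCaP control replicate 2, the library in which they were highest. DSCAM-AS1, an antisense transcript whose reads cannot be told from those of its partner if strand was not used, lost it in 7 (-7.51 to -5.72), with 0.439 and 0.123 CPM in VCaP stripped and 144 and 107 CPM in LNCaP stripped medium. BASP1 lost it in 2 (-6.17 to -3.79): without VCaP control replicate 1 and in the fit of 8 libraries.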

How the results depend on the processing

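The number of genes called for stripped against control medium, 128, was 167 with RLE size factors and 127 at an absolute log2 change of at least 1. It was 927 without the count filter, 860 with DESeq2, 438 in a fit of the 4 libraries compared, 311 in the 6 VCaP libraries on ACP, 326 without plastic control and 1057 in all 34 libraries, where 122 of the 128 remained called and, of the genes named, RBMXL2, UBE2C and SCGN did not. Leaving out 1 library gave 0 to 309 calls with edgeR and, an alternative chosen after seeing the data, 285 without control replicate 1, 315 without control replicate 2, 444 without stripped replicate 1 and 917 without stripped replicate 2 with DESeq2. The replicate block gave 340 calls with edgeR. All 128 genes kept their direction in the 16 other fits, apart from 1 gene not tested in the fit of 4 libraries. These fits share the libraries on which the 128 were picked, so a kept direction is no separate support. Control and stripped libraries share replicate numbers, but no label ties a number to a culture or day, and same-numbered deviations correlated at 0.21 between ACP control and ACP stripped and from -0.30 to 0.14 between the other VCaP groups.

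For the difference between lines, 103 calls became 111 with RLE sizes, 287 without the filter, 440 with DESeq2, 160 with the replicate block, 91 in the 8 libraries of both lines and 100 at an absolute change of at least 1, and 25 to 119 when 1 library was left out. The signs that turned when 1 library was left out belonged to values without a call. For stripped against control medium, KLK3 ran from -1.35 to 0.35, turning without stripped replicate 1. For the difference between lines, KLK3 ran from -0.68 to 1.06 and FKBP5 from -0.033 to 0.94, turning without stripped replicate 2 of VCaP. TMPRSS2 ran from -0.018 to 0.95 and DMKN from -2.87 to 3.48, turning without control replicate 2 of LNCaP, and ERG from -0.22 to 1.82, turning without stripped replicate 1 of LNCaP. In LNCaP on ACP in these media DMKN and ERG had few reads, at most 0.365 and 0.475 CPM. The cause was not tested, apart from the smaller number of libraries. With 2 libraries a group, most log2 changes of 1 stay below detection in the simulated counts.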
